A study of Mus musculus with 84 samples.

Results

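The genes of fatty acid oxidation and the targets of the peroxisome proliferator-activated receptors (PPARs) were read as a module of 43 listed mouse genes. All 43 had a row among the 17695 genes counted in mouse liver. A gene was tested where its median count over all mice was above 8, which kept 36 of the 43 members and 10415 of all genes. The 7 members left out of the tests were Pparg, Acot2, Acot3, Acot4, Acot8, Cidec and Vnn1, with median counts of 6, 4, 6.5, 1, 0.5, 1 and 1.5.

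Male B6C3F1 mice were fed AIN-93G diet that held an organophosphate pesticide (OPP) or none for 7 days from 8 weeks of age, and the liver RNA of 84 mice was measured by TempO-Seq, in which pairs of detector oligos are ligated on their target RNA and sequenced. The 12 groups held 7 mice each: control (0 ppm), fenthion (FT) at 2.5, 5, 10 and 20 ppm, methidathion (MT) at 10, 25, 50 and 100 ppm, and parathion (PT) at 20, 40 and 80 ppm. Fenthion and methidathion are O,O-dimethyl esters and parathion is an O,O-diethyl ester. The mice came from 3 experimental blocks, with 2, 3 and 2 mice of every group in blocks 1, 3 and 4, and the RNA was isolated at either of 2 sites (labelled EA and EPA), with EPA mice in control, FT 20, MT 10 and MT 100 ppm. Every dose was compared with the same 7 control mice. The paper cites significantly lower body weight and relative liver weight under parathion at 40 and 80 ppm. The part of these losses in the levels below was not tested.

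Liver is the main site of fatty acid oxidation during fasting. Fatty acids enter the mitochondrion as carnitine esters, very long chains are shortened first in the peroxisome, and the acetyl-CoA formed goes into ketone bodies. PPAR alpha, encoded by Ppara, is a nuclear receptor that binds fatty acids and pairs with the retinoid X receptor on DNA at a direct repeat spaced by 1 base, and it switches on many of these enzymes. In rodents, drugs that bind PPAR alpha enlarge the peroxisomes and raise Cyp4a, Acot and Ehhadh transcripts strongly.

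The direct repeat AGGTCANAGGTCA, in which N is any base, was searched on both strands in the 250 bases before the annotated start of each gene (mouse genome GRCm39, GENCODE canonical transcripts). With at most 1 of its 12 letters different, it was found before 2 of the 36 tested members, Acot12 and Fabp1, against 0.298% of 10408 tested genes. With at most 2 letters different it was found before 3 of the 36 (Plin2 was added), against 2.76%, and the half-site AGGTCA, counted also inside a direct repeat match, stood before 7 of the 36, against 11.8%. These 3 sequences are shown because Acot12 and Plin2 are among the members that passed the test below and Fabp1 is among the lowest, with the match in capitals, all of them on the strand opposite to the gene. They lie at chr13:91889335-91889584 (plus strand), chr6:71176559-71176808 (plus strand) and chr4:86588460-86588709 (minus strand), and each is written 5′ to 3′ along its gene.
Acot12: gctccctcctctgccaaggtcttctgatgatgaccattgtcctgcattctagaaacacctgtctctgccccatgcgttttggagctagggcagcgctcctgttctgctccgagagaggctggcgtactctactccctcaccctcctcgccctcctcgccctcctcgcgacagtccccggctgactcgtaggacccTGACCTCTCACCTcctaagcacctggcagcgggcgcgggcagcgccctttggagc
Fabp1: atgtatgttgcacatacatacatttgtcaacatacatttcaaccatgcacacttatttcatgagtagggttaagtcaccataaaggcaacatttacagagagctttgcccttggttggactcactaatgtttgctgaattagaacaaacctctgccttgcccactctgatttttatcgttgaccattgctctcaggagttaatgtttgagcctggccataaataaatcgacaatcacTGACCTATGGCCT
Plin2: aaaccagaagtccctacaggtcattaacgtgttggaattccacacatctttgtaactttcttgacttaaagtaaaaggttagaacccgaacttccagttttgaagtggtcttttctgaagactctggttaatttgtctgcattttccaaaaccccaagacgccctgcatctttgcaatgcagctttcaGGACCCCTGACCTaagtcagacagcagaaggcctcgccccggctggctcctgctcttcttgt

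Levels are given as CPM, the count of a gene scaled to the same total in every mouse, and in a group as the lowest, median and highest of its 7 mice. A level compares mice for 1 gene, since a TempO-Seq count depends on the gene's probes. Fold changes are log2 values from a quasi-likelihood fit in edgeR that held block and RNA site as covariates, given with their standard error (SE), and p-values were adjusted by the Benjamini-Hochberg method over all 10415 genes. A gene passed at an adjusted p under 0.05. Total counts were 6950381 to 15300589 per mouse, so that 3 counts correspond to 0.196 to 0.432 CPM. In bulk liver, fewer cells of a type and less RNA per cell cannot be told apart.

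The library of 1 PT 80 ppm mouse (340055, block 1, site EA) stood apart. It differed by more than 2-fold from its group median in 11.9% of tested genes, the largest share of the 84 libraries. It had the lowest level of all 84 mice for 14 of the 36 members and the highest for 3 (Crat, Acot12 and Angptl4). These counts describe the library, and no share over all tested genes is given beside them. Its Fabp1 level was 38.2 CPM against 3840 to 12412 CPM in the 77 mice of the other groups, whereas its albumin level (Alb, 7184 CPM) lay within their range. Values without this mouse are given for the members at PT 80 ppm against control where the call or direction changed or the value moved by over 1.5 times, and for several others.

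PT 80 ppm held most of the differences. Of the 36 tested members, 9 rose and 1 fell against control, beside 9.75% of all tested genes that rose and 8.89% that fell. The thioesterase Acot1 rose the most, at 2.06 on the log2 scale, and the lipid droplet coat protein Plin2 fell, by 1.10. The members that rose belong to both compartments of beta-oxidation (Acadm, Acadl, Eci1, Ehhadh, Eci2), to the thioesterases (Acot1, Acot12), and to carnitine and fatty acid handling (Crat, Slc27a2). Past both an adjusted p under 0.05 and a 2-fold change were 2 members, Acot1 and Plin2, beside 3.30% of all genes. The median log2 fold change was 0.12 over the members and 0.01 over all genes. Without mouse 340055, 8 members rose and 1 fell (6.41% and 5.84% of all genes), all 9 of them among the 10 above, and the member median was 0.20. In a fit of control and the parathion doses alone 4 of the 36 passed, Acadm, Acot1, Acot12 and Plin2. The share of all genes in that fit is not given here, so this count shows only which calls stayed.

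**Figure D1:**
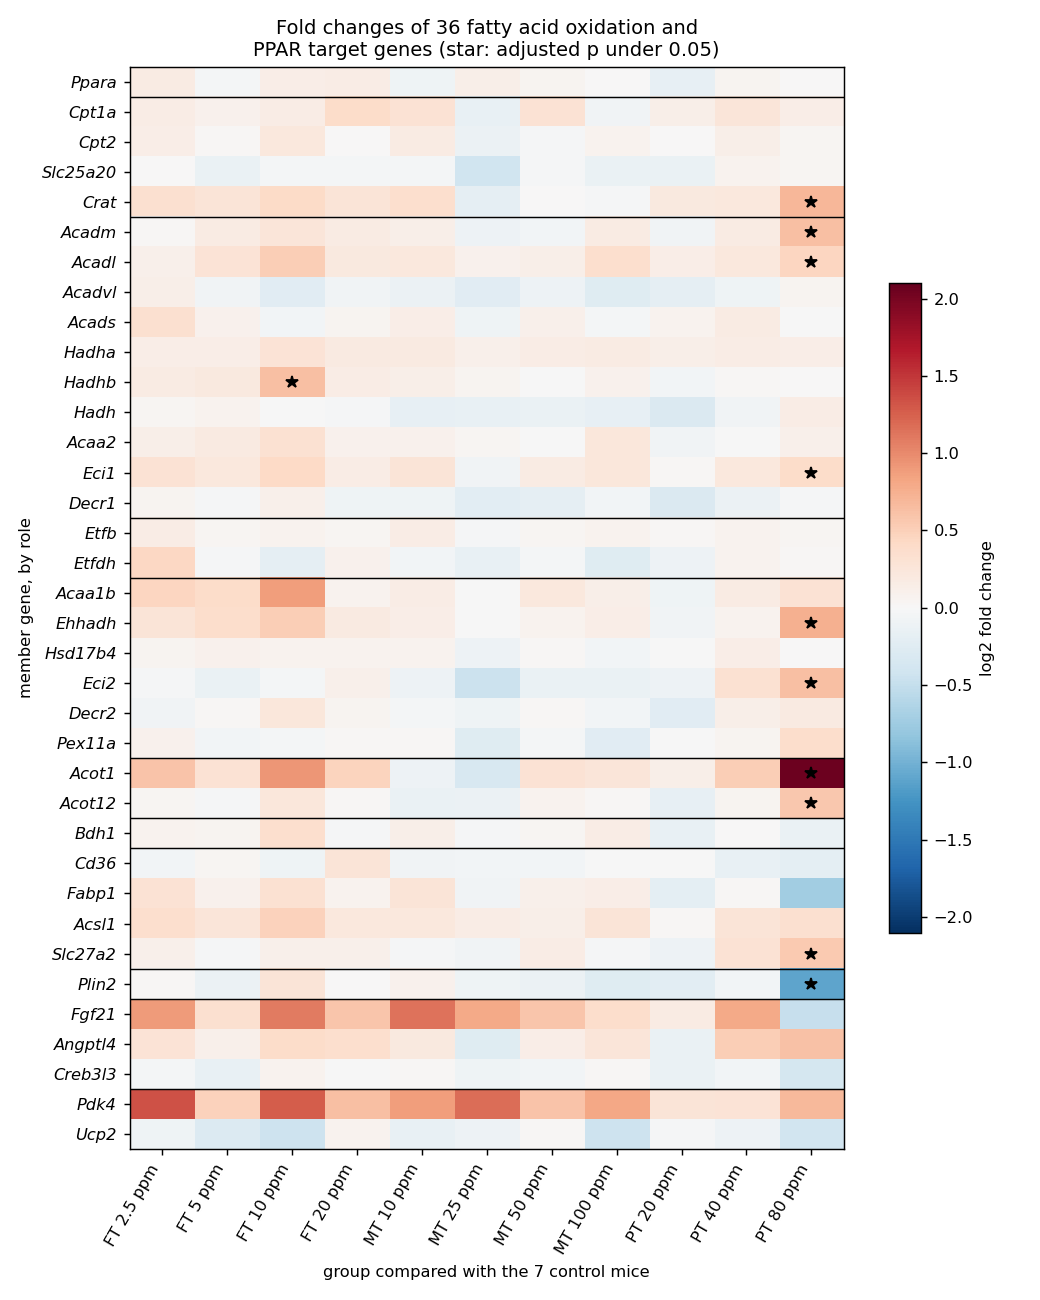
Log2 fold change of each of the 36 tested members (rows, by role) in each of the 11 dose groups against the 7 control mice (columns), with a star at an adjusted p under 0.05. The stars lie in the PT 80 ppm column, 10 of them, and at Hadhb under FT 10 ppm.

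**Figure D2:**
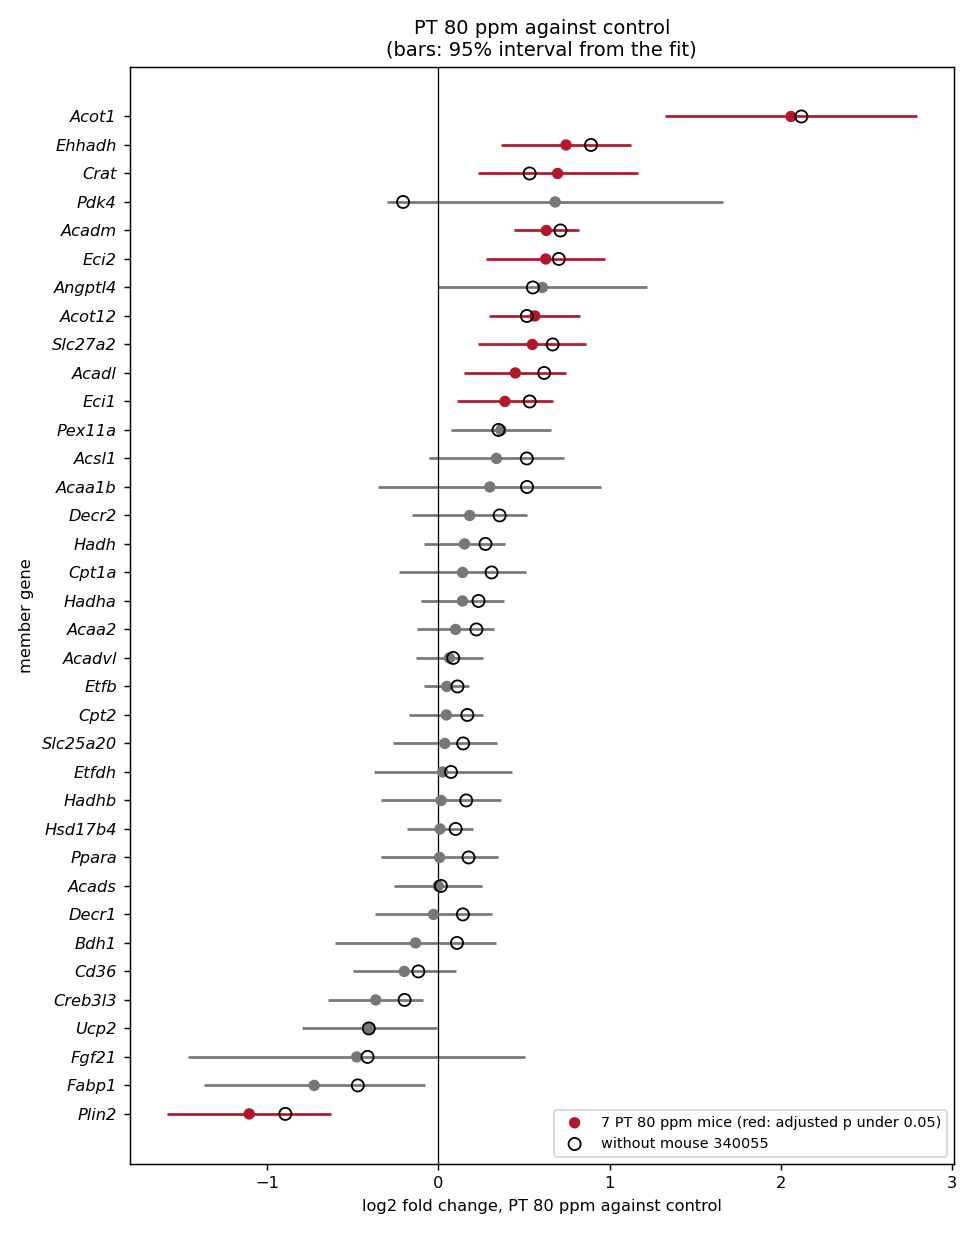
Log2 fold change at PT 80 ppm against control (dots, with bars for the 95% interval) for the 36 tested members, and the value without mouse 340055 (open circles). Acot1 lies at 2.06 and Plin2 at -1.10, and Pdk4 moves from 0.68 to -0.21 without that mouse.

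Among the receptors, Ppara was 161, 316 and 389 CPM in control and 129, 326 and 403 CPM at PT 80 ppm. The groups overlapped over nearly their whole range, and the log2 fold change was 0.01 (SE 0.17, 95% interval -0.33 to 0.35, adjusted p = 0.986), or 0.18 without mouse 340055 (adjusted p = 0.526). Its group medians lay between 239 and 363 CPM over the 12 groups. Pparg, the receptor of the fat cell, was near the detection floor in every group, with group medians of 0.256 to 0.874 CPM and a highest mouse of 1.72 CPM at FT 2.5 ppm.

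The carnitine shuttle carries long-chain fatty acids into the mitochondrion. Cpt1a, its rate-controlling enzyme, was 2.13, 2.47 and 5.87 CPM in control and 2.48, 3.43 and 6.89 CPM at PT 80 ppm, with a log2 fold change of 0.14 (SE 0.19, adjusted p = 0.669), or 0.31 without mouse 340055 (adjusted p = 0.274). Its partner Cpt2 and the carnitine carrier Slc25a20 had log2 fold changes of 0.05 and 0.04 that did not pass, and 0.17 and 0.15 without mouse 340055. Crat, which moves acetyl groups between CoA and carnitine, was 2.94, 4.78 and 6.81 CPM in control and 4.62, 6.96 and 18.9 CPM at PT 80 ppm, where 4 of 7 mice lay above every control mouse. It rose by a log2 fold change of 0.70 (SE 0.24, adjusted p = 0.0299). The mouse at 18.9 CPM was 340055, and without it the value was 0.53 (adjusted p = 0.148). The call was also lost without control mouse 340066 or 340070 (adjusted p = 0.0623 and 0.0650).

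Of the 10 members of mitochondrial beta-oxidation, 3 rose at PT 80 ppm and none fell, with log2 fold changes from -0.03 to 0.63. Acadm, the medium-chain acyl-CoA dehydrogenase, was 350, 416 and 636 CPM in control and 564, 756 and 944 CPM at PT 80 ppm. It lay above every control mouse in 5 of 7 mice, with a log2 fold change of 0.63 (SE 0.10, adjusted p = 1.17e-06). Within blocks 1, 3 and 4 its mean log2 difference was 0.39, 1.04 and 0.78.

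Acadl, the long-chain dehydrogenase, was 180, 245 and 449 CPM in control and 173, 455 and 550 CPM at PT 80 ppm, and its log2 fold change was 0.45 (SE 0.15, adjusted p = 0.0277). The lowest PT 80 ppm mouse was 340055 and lay below all controls, while the other 6 lay at 393 CPM or more. Within blocks 1, 3 and 4 the mean log2 difference was -0.52, 0.99 and 1.09, so that the direction turned in the block of that mouse. Without that mouse the value was 0.62 (adjusted p = 0.000274), and the call was lost without control mouse 340070 or 340071, or PT 80 ppm mouse 340056, 340062 or 340063 (adjusted p = 0.0577 to 0.104).

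Eci1, which isomerises double bonds of unsaturated chains, was 108, 137 and 180 CPM in control and 88.4, 217 and 313 CPM at PT 80 ppm. Its lowest mouse was again 340055, and 4 of 7 mice lay above all controls. Within blocks 1, 3 and 4 the mean log2 difference was -0.24, 0.57 and 0.96. Its log2 fold change of 0.39 (SE 0.14, adjusted p = 0.0467) was just past the threshold and passed no more in 8 of the 14 fits that left out 1 control or PT 80 ppm mouse (340069, 340070, 340071, 340072, 340056, 340060, 340062 and 340063, adjusted p = 0.0636 to 0.235). Without mouse 340055 it was 0.53 (adjusted p = 0.00227).

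The trifunctional protein, which carries out the last steps on long chains, is made of Hadha and Hadhb, and these had log2 fold changes of 0.14 and 0.02, or 0.23 and 0.16 without mouse 340055. Hadh, Acaa2, Acadvl, Acads and Decr1, with values from -0.03 to 0.15, did not pass either, and without mouse 340055 they ran from 0.02 (Acads) to 0.28 (Hadh), with Decr1 turning from -0.03 to 0.14 and Acaa2 moving from 0.10 to 0.22. The electron carriers Etfb and Etfdh, which pass electrons from the dehydrogenases to the respiratory chain, had values of 0.05 and 0.03, or 0.11 and 0.07 without mouse 340055.

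Of the 6 peroxisomal members, 2 rose at PT 80 ppm and none fell. Ehhadh, the peroxisomal bifunctional enzyme and a classical PPAR alpha target, was 5.55, 7.63 and 10.8 CPM in control and 6.16, 12.5 and 31.9 CPM at PT 80 ppm. Of the 7 mice, 5 lay above every control mouse, and the log2 fold change was 0.75 (SE 0.19, adjusted p = 0.00348). The mouse at 31.9 CPM was 340063, and without it the value was 0.44 (adjusted p = 0.0676), whereas without mouse 340055 it was 0.89. Within blocks 1, 3 and 4 the mean log2 difference was -0.04, 0.90 and 1.04.

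Eci2, the peroxisomal isomerase, was 69.4, 91.9 and 197 CPM in control and 96.7, 199 and 249 CPM at PT 80 ppm. The groups overlapped, with 4 of 7 mice above all controls, and it rose by a log2 fold change of 0.63 (SE 0.18, adjusted p = 0.00765). Pex11a, which drives peroxisome division, was 7.43, 10.7 and 20.3 CPM in control and 10.8, 15.9 and 27.1 CPM at PT 80 ppm, with a log2 fold change of 0.37 that did not pass (SE 0.15, adjusted p = 0.0755). Acaa1b, Hsd17b4 and Decr2 had values of 0.30, 0.01 and 0.18 that did not pass, or 0.52, 0.10 and 0.36 without mouse 340055.

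The acyl-CoA thioesterases, which split acyl-CoA into free fatty acid and CoA, held the largest differences. Acot1, in the cytosol, was 1.49, 1.87 and 6.81 CPM in control and 2.31, 10.9 and 20.9 CPM at PT 80 ppm. Of the 7 PT 80 ppm mice, 5 lay above every control mouse. The log2 fold change was 2.06 (SE 0.37, 4.17-fold, adjusted p = 3.01e-05), and it stayed between 1.81 and 2.48 with any 1 control or PT 80 ppm mouse left out. Within blocks 1, 3 and 4 it was 1.64, 1.32 and 2.20.

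Acot12, which acts on acetyl-CoA, was 17.3, 18.8 and 24.5 CPM in control and 23.8, 29.3 and 41.7 CPM at PT 80 ppm. All but 1 of the 7 mice lay above every control mouse, and the log2 fold change was 0.56 (SE 0.14, adjusted p = 0.00146). Without mouse 340055, the highest, it was 0.52 (adjusted p = 0.00709).

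Acot3, a peroxisomal relative of Acot1, was too low in the other groups to enter the tests. It was 0, 0.137 and 1.57 CPM in control and 3.35, 9.79 and 32.1 CPM at PT 80 ppm, and it was the only one of the 43 members whose PT 80 ppm mice all lay above all control mice. Over the tested genes that separation was seen for 0.903% upward and 0.538% downward, and for none of the 36 tested members in either direction. In a fit with no filter on low counts, Acot3 had a log2 fold change of 4.70 (SE 0.78, edgeR adjusted p = 1.08e-05 over all genes), a value that depends on the low control counts. Acot2, its mitochondrial relative, was 0, 0.203 and 0.861 CPM in control and 0.370, 0.647 and 2.34 CPM at PT 80 ppm, and in that fit its value was 1.66 (SE 0.51, adjusted p = 0.0226). Acot4 and Acot8 stayed under 1 CPM in all 84 mice.

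Acot1 to Acot4 are alike in sequence to differing degrees, so counts may be split among them or with other genes. The coding sequences of Acot1 and of Acot2, Acot3 and Acot4 were identical at 86.1%, 84.1% and 75.3% of aligned positions (GENCODE transcripts on GRCm39). Of the windows of 50 bases in Acot1 transcripts, the length of a read here, 21% were also present in another gene, mostly Acot2. For Acot3 it was 24.4%, mostly shared with Gm49366 (22.6%) and then Acot5 (5.06%). The positions of the probes were not used here. The stretches below are the earliest 90 coding bases of Acot1 (bases 31 to 120) that align with no gap to all 3 others, shown so that their likeness can be read, with bases that differ from Acot1 in capitals.
Acot1: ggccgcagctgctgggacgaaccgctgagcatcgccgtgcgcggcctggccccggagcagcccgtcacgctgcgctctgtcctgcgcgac
Acot2: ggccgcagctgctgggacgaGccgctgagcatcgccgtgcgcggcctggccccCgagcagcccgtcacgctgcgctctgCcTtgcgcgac
Acot3: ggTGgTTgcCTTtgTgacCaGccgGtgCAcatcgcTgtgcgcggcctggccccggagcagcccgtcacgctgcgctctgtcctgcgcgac
Acot4: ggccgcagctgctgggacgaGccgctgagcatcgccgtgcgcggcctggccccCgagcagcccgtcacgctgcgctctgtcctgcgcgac
Over these 90 bases Acot2, Acot3 and Acot4 differed from Acot1 at 4, 14 and 2 positions.

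Among the genes of uptake, activation and binding, Slc27a2, a very long-chain acyl-CoA synthetase and carrier, was 378, 592 and 892 CPM in control and 556, 873 and 1301 CPM at PT 80 ppm. The groups overlapped, with 3 of 7 mice above all controls, and it rose by a log2 fold change of 0.55 (SE 0.16, adjusted p = 0.0102). The call was lost without PT 80 ppm mouse 340060 (0.39, adjusted p = 0.0665). Fabp1, the liver fatty acid binding protein, was 3840, 6727 and 12388 CPM in control and 38.2, 4063 and 10672 CPM at PT 80 ppm. Of the 7 PT 80 ppm mice 3 lay below every control mouse. The log2 fold change of Fabp1 was -0.72 (SE 0.33, adjusted p = 0.116), and without mouse 340055 it was -0.47 (adjusted p = 0.132). Without PT 80 ppm mouse 340063, the highest, it was -1.0 and passed (adjusted p = 0.0255). Acsl1, the main acyl-CoA synthetase, had a value of 0.34 and Cd36, a fatty acid translocase, of -0.20, and neither passed. Without mouse 340055 they were 0.52 (adjusted p = 0.0531) and -0.12.

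Plin2, the main coat protein of lipid droplets in hepatocytes, was 842, 911 and 1366 CPM in control and 91.9, 471 and 1002 CPM at PT 80 ppm. Of the 7 mice, 6 lay below every control mouse. It fell by 1.10 on the log2 scale (SE 0.24, adjusted p = 0.000609), and without mouse 340055 by 0.89 (adjusted p = 0.00330). Both block 1 mice were the lowest (91.9 and 152 CPM), and within blocks 1, 3 and 4 the mean log2 difference was -3.28, -0.34 and -0.80. Cidec, another droplet protein, stayed at or under 1.68 CPM in all 84 mice.

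The secreted factors and the fuel switch genes did not pass at PT 80 ppm. Fgf21, a fasting hormone, was 0.712, 3.50 and 7.93 CPM in control and 0.401, 1.93 and 10.5 CPM at PT 80 ppm (log2 fold change -0.48, SE 0.50, adjusted p = 0.568). Angptl4, an inhibitor of lipoprotein lipase, was 147, 210 and 274 CPM in control and 155, 355 and 554 CPM at PT 80 ppm (0.61, SE 0.31, adjusted p = 0.174). Of its PT 80 ppm mice 5 lay above every control mouse. Creb3l3, a liver transcription factor that acts with PPAR alpha, had a value of -0.37 (SE 0.14, adjusted p = 0.0589), and without mouse 340055, again the lowest, it was -0.20 (adjusted p = 0.266). Of its PT 80 ppm mice 3 lay below and 1 above every control mouse. Pdk4, which shuts off pyruvate oxidation, had a value of 0.68 (SE 0.50, adjusted p = 0.373) that turned to -0.21 without mouse 340055. Bdh1, the ketone body dehydrogenase, was 362, 448 and 769 CPM in control and 19.3, 519 and 781 CPM at PT 80 ppm, with the low value in mouse 340055, and its log2 fold change was -0.13 with all mice and 0.11 without that mouse (SE 0.13, adjusted p = 0.681). Ucp2, an uncoupling protein, had -0.40, and Vnn1, a pantetheinase, stayed at or under 1.04 CPM in all mice.

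**Figure D3:**
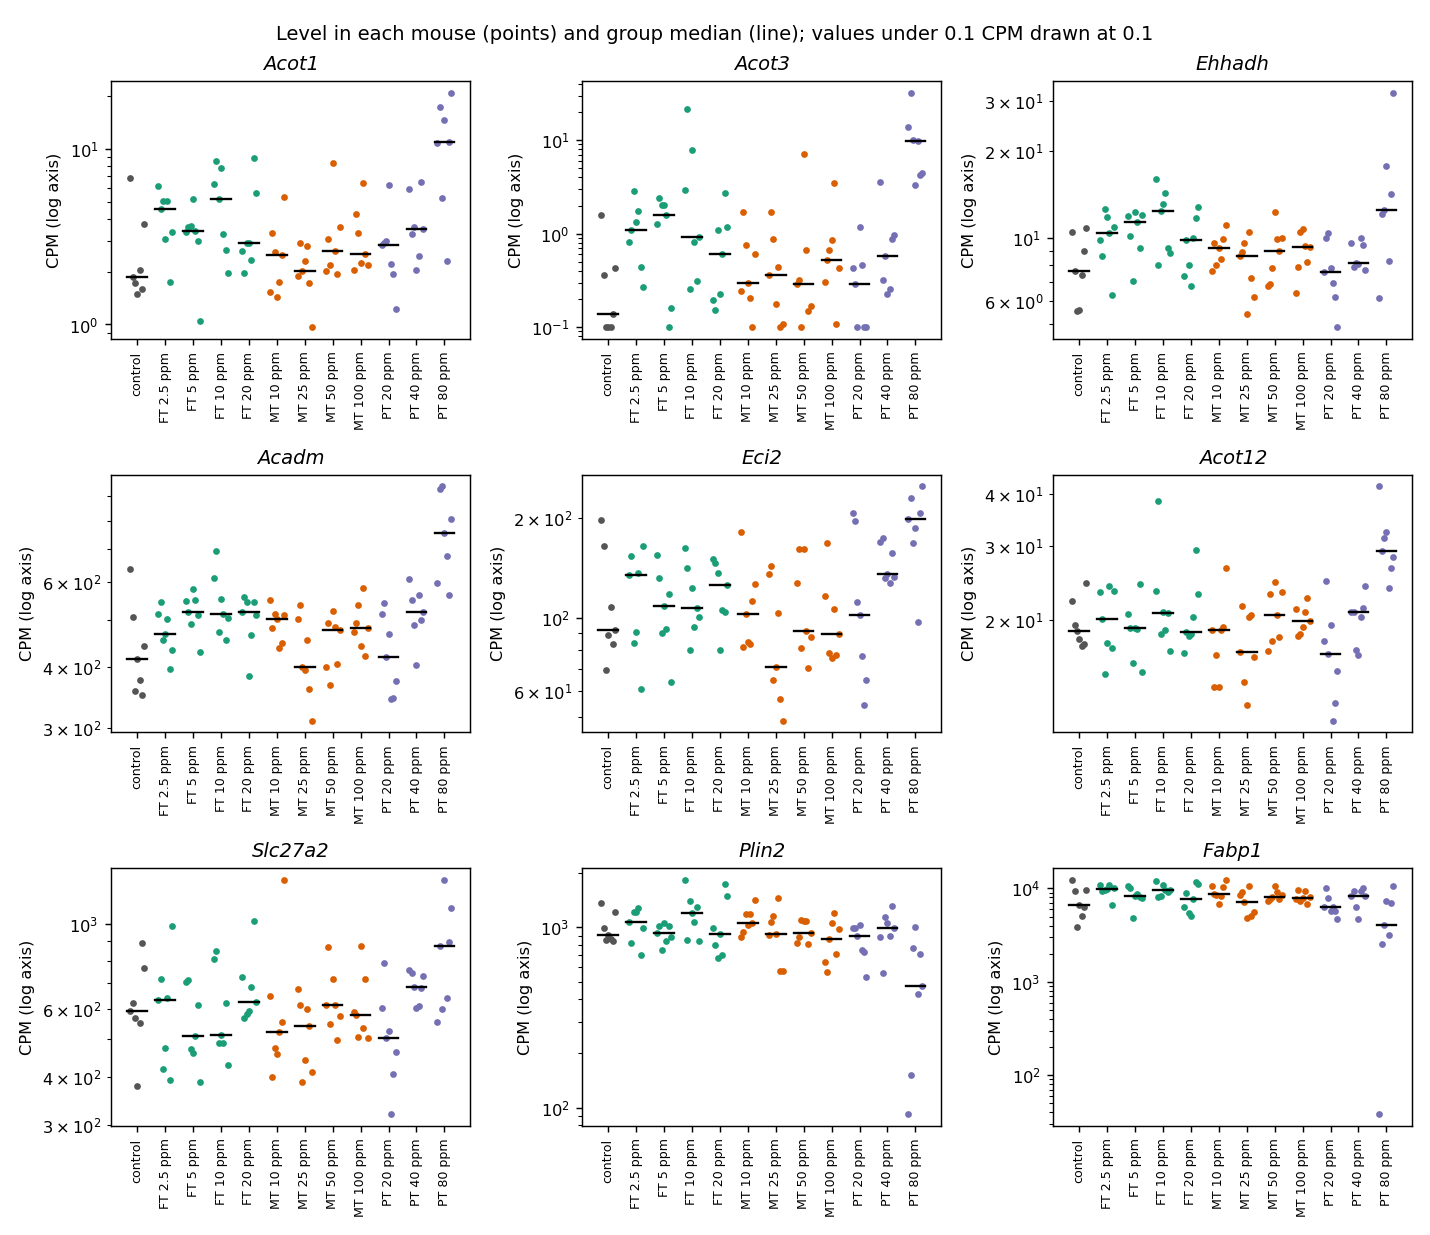
Level in each mouse (points, CPM on a log axis) and group median (line) of 9 members in the 12 groups of 7 mice, with values under 0.1 CPM drawn at 0.1. At PT 80 ppm, Acot1, Acot3, Ehhadh, Acadm, Eci2, Acot12 and Slc27a2 have the highest median of the 12 groups and Plin2 and Fabp1 the lowest.

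At the lower parathion doses, PT 20 and 40 ppm, no member passed. An unadjusted p under 0.05 was seen for 1 and 0 of 36 members, beside 5.91% and 8.51% of all genes. Acot1 had medians of 2.82 and 3.50 CPM and log2 fold changes of 0.13 and 0.52 (SE 0.40 and 0.39). Acadm had values of -0.08 and 0.17 (SE 0.10 each), and Plin2 of -0.23 and -0.06 (SE 0.24 each). Acot3 had medians of 0.290 and 0.583 CPM.

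PT 80 ppm was also compared with the mean of PT 20 and 40 ppm, which shares no control mouse with the comparison above but the same PT 80 ppm mice. There 8 members rose (13.4% of all genes) and 1 fell (12.4% of all genes). Those that rose were Acadm, Hadh, Ehhadh, Eci2, Pex11a, Acot1, Acot12 and Slc27a2, and Plin2 fell by 0.96 (SE 0.21, adjusted p = 0.000462). Acot1 was higher by 1.74 (SE 0.30, adjusted p = 6.09e-06) and Ehhadh by 0.74 (SE 0.16, adjusted p = 0.000273). Hadh, the short-chain hydroxyacyl-CoA dehydrogenase, was 112, 131 and 159 CPM at PT 20 ppm, 139, 159 and 199 CPM at PT 40 ppm and 97.5, 204 and 282 CPM at PT 80 ppm (0.34, SE 0.10, adjusted p = 0.0105). Without mouse 340055, 12 members rose, Acaa2, Acadl, Decr1, Decr2 and Eci1 among them, while Pex11a no longer passed, and Plin2 fell.

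Fenthion at 10 ppm was the other dose with a member past the test, 1 of 36 beside 1.57% of all genes. Hadhb was 22.6, 28.2 and 40.2 CPM in control and 34.2, 47.1 and 61 CPM at FT 10 ppm. It rose by a log2 fold change of 0.63 (SE 0.18, adjusted p = 0.0481). Of the 50-base windows in Hadhb transcripts 8.35% were also present in another gene, mostly Hadhb-ps (6.80%), so its counts may be split. At an unadjusted p under 0.05, 13 of the 36 members were higher, beside 8.87% of all genes, and 2 (Acadvl and Ucp2) were lower, beside 8.82%. The 13 lay in the mitochondrion (Cpt2, Acadm, Acadl, Hadha, Hadhb, Acaa2, Eci1), the peroxisome (Ehhadh, Acaa1b) and elsewhere (Acot1, Acsl1, Fgf21, Pdk4), with log2 fold changes of 0.22 to 1.27. Acadl was nearest to passing after Hadhb, at 0.51 (SE 0.15, adjusted p = 0.0595). Acadl was 355, 402 and 597 CPM at FT 10 ppm against 180, 245 and 449 CPM in control. The member median was 0.24 and the median of all genes -0.01.

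The Hadhb call at FT 10 ppm changed with the fit. The control group held 2 mice of site EPA and FT 10 ppm held none. With EA mice alone no member passed, with block as the only covariate 5 did and with no covariates 4 did. Leaving out any 1 of control mice 340069, 340070, 340071, 340072 and 340073 left 0. The shares of all genes in these fits are not given here. Acot3 was 0.255, 0.933 and 21.4 CPM at FT 10 ppm, where mice 339946, 339969 and 339945 held 21.4, 7.90 and 2.94 CPM and the others lay within the control range. In the fit with no filter on low counts its log2 fold change there was 3.59 (SE 0.80, edgeR adjusted p = 0.0370).

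At FT 20 ppm, the highest fenthion dose, no member passed and 1 of 36 (Cpt1a, 0.38, SE 0.18) had an unadjusted p under 0.05, beside 3.98% of all genes. The counts at FT 2.5 and 5 ppm were 5 and 0, beside 10.7% and 7.59%, with none past the adjusted test. The 5 at FT 2.5 ppm were all higher (Etfb, Etfdh, Acads, Eci1 and Pdk4). Pdk4 was 0.803, 1.92 and 9.93 CPM there against 0.856, 1.63 and 2.25 CPM in control. The fenthion doses did not line up in order: the member medians were 0.14, 0.08, 0.24 and 0.09 from 2.5 to 20 ppm.

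Under methidathion no member passed at any dose. At an unadjusted p under 0.05 there were 2, 4, 0 and 4 of 36 members from 10 to 100 ppm, beside 9.97%, 5.79%, 3.99% and 13.7% of all genes. At MT 25 ppm 3 of the 4 were lower, Eci2, Slc25a20 and Acadvl, with log2 fold changes of -0.46, -0.42 and -0.24. At MT 100 ppm Acadl (0.35, SE 0.15) and Acaa2 (0.24, SE 0.11) were higher and Acadvl (-0.25, SE 0.10) and Ucp2 (-0.44, SE 0.20) lower. Acot1 had medians of 2.49, 2.01, 2.61 and 2.52 CPM from 10 to 100 ppm, against 1.87 CPM in control. MT 100 ppm against the mean of the 3 lower doses gave no call and 3 of 36 members at an unadjusted p under 0.05 (Acadm, Acaa2 and Ucp2), beside 8.45% of all genes. DESeq2 called no member in any comparison named as having none here, and limma on log2(CPM + 1) called none either.

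Compounds were set side by side at the same diet dose in 2 pairs, fenthion and methidathion (both dimethyl) at 10 ppm and parathion (diethyl) and fenthion at 20 ppm. Neither pair gave a member past the adjusted test. FT 10 against MT 10 ppm had 5 of 36 members at an unadjusted p under 0.05, all higher at FT 10 ppm, beside 7.65% of all genes. Acot1 was higher by 1.02 (SE 0.39, 95% interval 0.27 to 1.78, adjusted p = 0.575), Hadhb by 0.50 (SE 0.18, 0.16 to 0.85, adjusted p = 0.568) and Acot12 by 0.38 (SE 0.13, 0.12 to 0.64, adjusted p = 0.568). The other 2 were Acaa1b and Acaa2. For Fabp1 the interval of the difference ran from -0.60 to 0.68 and for Ppara from -0.10 to 0.56, so that differences of that size remain possible.

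PT 20 against FT 20 ppm had 2 of 36 members at an unadjusted p under 0.05, beside 3.40% of all genes. Acadm was lower at PT 20 ppm by 0.26 (95% interval -0.45 to -0.07) and Hadh by 0.28 (-0.52 to -0.04), both with an adjusted p of 0.999. Of the 36 estimates 2 were above 0, and the member median was -0.20 with a median of all genes of 0.00. Acot1 had a difference of -0.34 with an interval from -1.13 to 0.45. No comparison between compounds was made at PT 80 ppm, which has no dose of the others beside it.

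**Figure D4:**
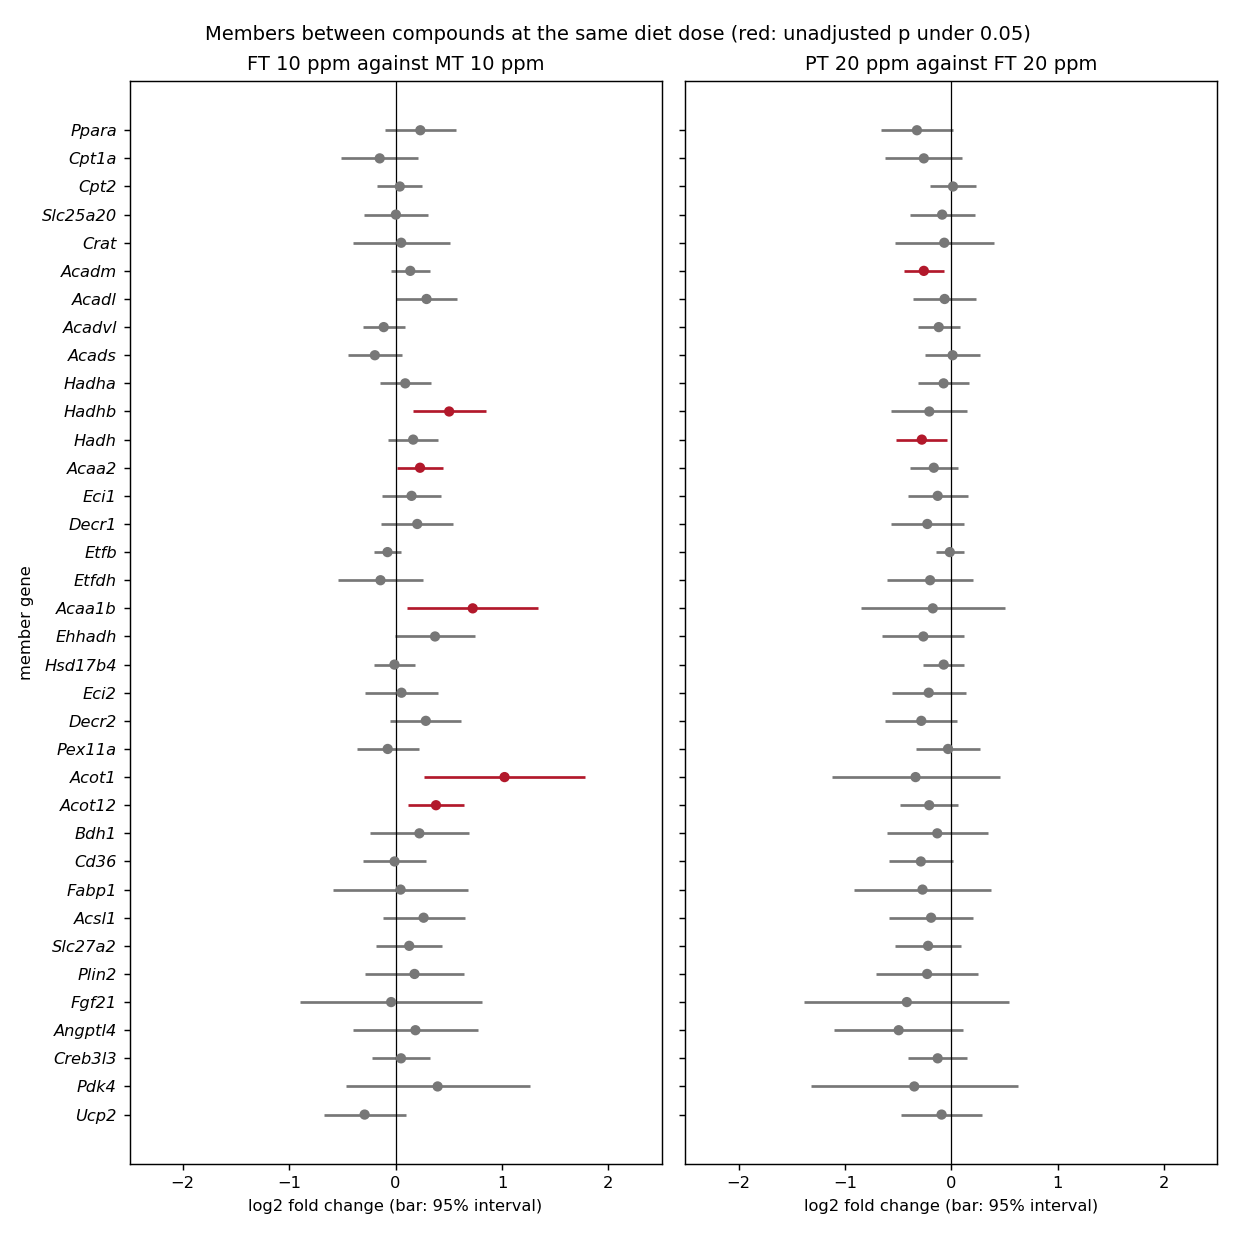
Log2 difference of each of the 36 tested members between FT 10 and MT 10 ppm (left) and between PT 20 and FT 20 ppm (right), with bars for the 95% interval and red for an unadjusted p under 0.05. The 5 red members on the left lie above 0 and the 2 on the right below 0.

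As a summary, the module score of a mouse is its mean z score of log2(CPM + 1) over the 36 tested members. Its median was -0.61 in control, from -0.87 to 0.54, the lowest median of the 12 groups. It was 0.44, 0.10, 0.21 and 0.03 from FT 2.5 to 20 ppm, 0.08, -0.48, -0.14 and -0.01 from MT 10 to 100 ppm, and -0.24, 0.16 and 0.59 from PT 20 to 80 ppm. PT 80 ppm had the highest median and the widest range, from -1.54 in mouse 340055 to 1.25. By the mean the order differed: control was at -0.26, above MT 25 and PT 20 ppm (both -0.41). The PT 80 ppm mean of 0.27 was below that of FT 10 ppm (0.31). Block and RNA site were not taken out of the score. Every group overlapped with control. All 11 comparisons with control use these same control mice.

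**Figure D5:**
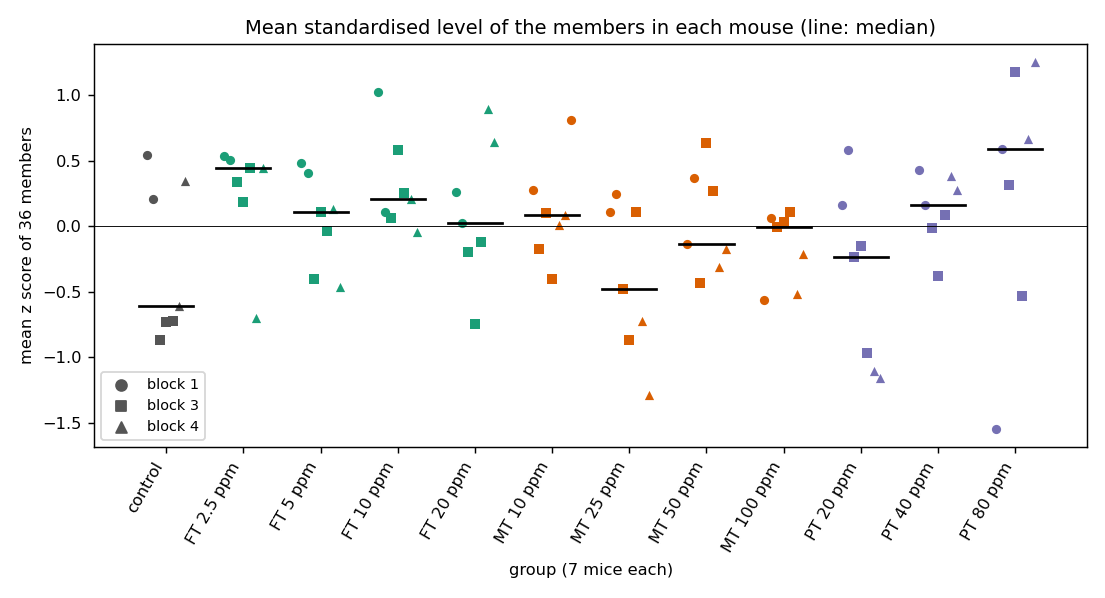
Mean z score of the 36 tested members in each mouse (points, shaped by experimental block) and its median (line) in the 12 groups of 7 mice. The control median is -0.61 and the PT 80 ppm median 0.59, and mouse 340055 is the lowest point at -1.54.

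Members differed widely in how much they varied between mice of 1 group. After group, block and site were taken out, the standard deviation of log2(CPM + 1) ran from 0.14 (Etfb) to 0.88 (Fabp1), with a median of 0.31 over the members and 0.25 over all tested genes. Acadm had 0.18, Acot1 0.57 and Fgf21 0.73. The Fabp1 value holds mouse 340055. Block 1 mice had higher means than block 3 mice for 26 of the 36 members and for 6507 of the 10415 tested genes. Among the members the difference was the largest for Eci2 (0.66 on the log2 scale) and Cpt1a (0.62), and it was -0.64 for Pdk4.

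Within groups, the residual level of Cpt1a was compared with that of each other tested gene over the 84 mice, by permutation with p-values adjusted over all 10414 genes. Pearson's r passed for 20 of 35 members, beside 23.5% of all genes, and Spearman's rho for 4 of 35, beside 3.92%. The strongest was Hsd17b4 with r = 0.62 (permutation p = 1e-05, the smallest that 100000 permutations can give, adjusted p = 0.000465) and rho = 0.43 (permutation p = 7e-05, adjusted p = 0.00959). Ppara had r = 0.44 (permutation p = 6e-05, adjusted p = 0.00138) and rho = 0.35 (permutation p = 0.0012, adjusted p = 0.0391). The relations rested largely on 2 mice of block 1, the PT 80 ppm mouse 340055 and the FT 10 ppm mouse 339946, the farthest from the median of Cpt1a. Without them 3 members passed by r (4.23% of all genes), r was 0.43 for Hsd17b4 and 0.32 for Ppara, and the member median fell from 0.32 to 0.18. Without the PT 80 ppm mice 7 of 35 members passed by r, beside 21.4% of all genes. In blocks 1, 3 and 4 alone r for Ppara was 0.64, 0.37 and 0.17.

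Genes of the same pathways outside the module, from lists that were chosen with earlier results of these data known, were read at PT 80 ppm, where 9.75% of all tested genes rose and 8.89% fell. Several of these counts lie near that share, and nothing particular to a list is drawn from them. Of the 6 tested omega-oxidation genes, which make dicarboxylic acids in the endoplasmic reticulum, 2 rose and 2 fell. Cyp4a10 was 0.202, 1.03 and 3.04 CPM in control and 57.4, 214 and 911 CPM at PT 80 ppm, with no overlap (7.89, SE 0.74, adjusted p = 1.29e-12). At FT 10 ppm Cyp4a10 was 0.880, 3.20 and 30.3 CPM, and its mouse at 30.3 CPM was the highest outside PT 80 ppm. There 1 of the 6 omega-oxidation genes rose past the adjusted test, beside 1.57% of all genes that passed it. Cyp4a14, below the filter and named after its values were seen, was at or under 0.157 CPM in control and 16.2, 28.8 and 203 CPM at PT 80 ppm. Cyp4a12a and Cyp4a12b fell, by 1.31 and 1.3 (adjusted p = 0.0008 and 0.000329), and Cyp4a32 rose by 1.18 (adjusted p = 0.0188). Of the 50-base windows of Cyp4a10, 35.3% are shared with another gene, so its counts are uncertain among Cyp4a10, Cyp4a31 and Cyp4a32.

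Of 9 tested genes of fatty acid synthesis, 4 fell and none rose, with a median of -0.91. They were Scd1 (-2.18, SE 0.37, adjusted p = 1.23e-05), Acacb (-1.45), Acly (-0.91) and Elovl6 (-0.96). Of 19 further peroxisomal genes 4 rose and 3 fell: the transporter Abcd2 rose by 2.12 and Hacl1 by 0.57, while the carrier Scp2 fell by 0.88 and the CoA hydrolase Nudt7 by 1.23. Of 13 further mitochondrial genes 3 rose and 1 fell, with Acsm3 at 0.64 and Acad10 at 0.70.

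Of 9 tested PPAR partners and cofactors 3 rose and 1 fell. The coactivators Ppargc1a and Lpin1 rose by 1.10 and 2.03, the Fgf21 co-receptor Klb by 1.09, and Fgfr4 fell by 0.32. Of 12 further droplet and lipolysis genes 3 rose (Plin4 by 2.79, Plin5 by 0.89 and the lipase Pnpla2 by 0.79) and 2 fell, Pnpla3 among them by 2.47. Of 10 other uptake and activation genes Slc27a1 rose by 1.00 and Acsl5 fell by 0.76. Without mouse 340055, when 6.41% of all tested genes rose and 5.84% fell, the counts of rises and falls were 3 and 2 of 6 (omega-oxidation), 0 and 4 of 9 (synthesis), 6 and 2 of 19 (peroxisome), 5 and 0 of 13 (mitochondrion), 3 and 1 of 9 (partners), 3 and 2 of 12 (droplets), and 1 and 1 of 10 (uptake).

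Some markers of the cell types of liver also passed at PT 80 ppm, where 9.75% of all tested genes rose and 8.89% fell. All 8 hepatocyte markers were measured and 3 rose, with summed levels of 26458 to 52690 CPM in control and 40457 to 61446 CPM at PT 80 ppm. Of 5 tested Kupffer cell markers 3 fell, with summed levels of 74.7 to 159 CPM in control and 14.2 to 100.0 CPM at PT 80 ppm, and all 3 tested erythroid markers fell, with summed levels of 24.9 to 109 CPM and 9.45 to 37.9 CPM. The 1 tested cholangiocyte marker fell, and that list summed to 56.9 to 130 CPM in control and 12.8 to 61.3 CPM at PT 80 ppm. Of 5 tested stellate cell and fibroblast markers 1 rose and 1 fell, and none passed among 5 endothelial, 2 neutrophil, 1 adipocyte, 1 T and B cell and 1 pancreas marker tested. The 6 adipocyte markers summed to 9.16 to 17 CPM in control and 10.6 to 34.7 CPM at PT 80 ppm. The part of cell make-up in the members' values was not tested.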

How the data were processed

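Liver RNA of 84 mice was measured by TempO-Seq, and 1 table of estimated counts per gene was deposited. The authors trimmed the reads, aligned them with STAR to the mm39 build and assigned them to Ensembl transcripts by expectation-maximization in Partek, which gave estimated counts. Of these 18.7% were not exactly equal to a whole number (no tolerance), and they were rounded here. A second table that the authors deposited holds 1 score per gene and mouse, which is log2 CPM after removal of low genes and a general linear model for block and RNA site. It served as an alternative only, since its values were centred within group, block and site. All columns were mapped to a mouse.

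Genes with a median count above 8 were fitted with edgeR 4.0.16 (TMM, quasi-likelihood test, group with block and RNA site as covariates, 84 mice, R 4.3.3), and p-values were adjusted by Benjamini-Hochberg over all 10415 genes, with a call at 0.05. Intervals are the estimate with its normal 95% bounds. DESeq2 1.42.0 and limma 3.58.1 on log2(CPM + 1) or log2(CPM + 0.5), other normalizations, covariates and filters, EA mice alone, 1 OPP alone, each block alone, and each control or PT 80 ppm mouse left out were alternatives. In simulated data edgeR recovered 87 of 100 genes changed by 1 and 98 of 100 changed by 2 on the log2 scale at PT 80 ppm. It also called 10 unchanged genes. No smaller change and no block or site difference was simulated, so recovery of the smaller changes of most called members is not known. The covariation p-values were adjusted over all genes, not over the members as first planned. Intervals rest on the fitted spread between mice, and floors of 3 counts cover counting error only. Nothing says that mice are independent of cage (4 mice shared 1), so p-values measure the spread between these mice. The members and lists were chosen with earlier results of these data known.

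Values per group are given for Ppara and Pparg, members past the test against control, and the 3 highest and 3 lowest at PT 80 ppm, with counts for the others. Of each pathway list at most the 4 genes with the lowest adjusted p were named, apart from Cyp4a14, and some genes of these lists are not reported here. Sequences came from GRCm39 with GENCODE transcripts, over 250 bases before each start.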

Additional observations from a re-analysis of the deposited data

Results flagged for a closer look

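A mouse set apart from the other 6 of its group was found in 6 of 40 groups examined. The measure was the gap to its neighbour over the group's range (limit 0.568). It was taken on log2(CPM + 1) for genes and on the score itself for the module score, while levels below are in CPM. Chance gives about 1 in 20 for a single group. Genes of the same mice are not independent, so the count cannot be weighed against that rate. In the PT 80 ppm mouse 340055 this held for Fabp1 (gap 0.742, 38.2 CPM against 2513 CPM in the next mouse), Acadl (gap 0.709, 173 against 393 CPM) and Hadhb (gap 0.703, 12.3 against 31.1 CPM). The lowest Eci2 mouse at PT 80 ppm was another, 340061 (gap 0.584, 96.7 against 168 CPM). The lowest control mouse for Ppara was 340070 (gap 0.581, 161 against 269 CPM). The lowest module score at FT 2.5 ppm was that of mouse 339985 (gap 0.719, -0.70 against 0.19).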

How the results depend on the processing

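No paired analysis was possible because the mouse numbers in the labels differ between groups. At FT 10 ppm 1 of the 36 tested members was called. The count became 0 with total counts, no filter, EA mice alone, 1 OPP alone and both limma fits. It became 2 with DESeq2, 4 with no covariates, 5 with block as the only covariate, and 0 to 2 with 1 control mouse left out. The deposited adjusted values also gave 0, but only under an added 2-fold limit, with Hadhb at 0.90 on the log2 scale. At PT 80 ppm the count of 10 became 4 with 1 OPP alone. With the adjusted values and their 2-fold limit it was 2, Acot1 and Plin2. The edgeR fit gave these same members at a 2-fold limit. Against lower PT the count of 9 became 14 with both limma fits. The shares of all genes in these other fits are not given here, so the counts show only how the calls changed. The adjusted values have 1 adjusted p per gene and compound, repeated at each dose, so it tests no single dose against control. With a 2-fold limit at the dose, they gave 1 at FT 2.5 and FT 20 ppm, and 3 at MT 10 ppm. They gave 2 at MT 25, MT 100, PT 20 and PT 40 ppm, and the count was otherwise 0 at these doses. These are counts of the 36 tested members. Pparg, untested elsewhere, also passed there at FT 2.5, FT 5, FT 10, MT 25 and PT 20 ppm. At PT 20 and 40 ppm the 2 tested members were Fabp1 (1.23 and 1.10) and Fgf21 (1.54 and 1.13). In the edgeR fit Fabp1 had -0.20 and 0.02 at these doses, and Fgf21 had 0.17 and 0.80. Per compound, with Pparg included, 2, 5 and 5 of 37 members passed under FT, MT and PT. The shares of all 11064 genes were 9.93%, 7.90% and 9.39%. Covariation with Cpt1a by r fell from 20 to 7 of 35 members without the PT 80 ppm mice, beside 21.4% of all genes. It fell to 3 without the 2 farthest mice, beside 4.23% of all genes. The difference in median module score between PT 80 ppm and control was 0.385 without scaling. At PT 80 ppm, the direction turned within block 1 for Acadl (-0.52), Eci1 (-0.24) and Ehhadh (-0.040). Hadhb and Ppara, near 0 and not called, turned with EA mice alone (-0.12 and -0.038), with 1 OPP alone (-0.099 and -0.045), and Ppara also with no covariates (-0.083), block only (-0.036) and the adjusted values (-0.26). With 1 mouse left out they ran from -0.061 to 0.163 and from -0.079 to 0.176. The causes were not tested. The 7 untested members had median counts of 8 or fewer.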
